A study of Mus musculus with 22 samples.

Results

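The genes examined were 10 that are expressed in haploid spermatids: the protamines Prm1 and Prm2, the transition proteins Tnp1 and Tnp2, the glycolytic enzyme Gapdhs, the fusion protein Izumo1, the acrosomal proteins Acrv1 and Acr, and the tail proteins Odf1 and Spag6. They were taken by name, and each was represented by the 50 kb windows that overlap its RefSeq span in mm10 (GRCm38). This gave 9 windows of the 54520 along the genome, 29835 of which overlap at least 1 of 21887 protein-coding genes. Prm1, Prm2 and Tnp2 lie in 1 window on chromosome 16, so the counts do not separate these 3 genes, and Spag6 spans 2 adjoining windows on chromosome 2. The other 6 genes have 1 window each.

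The study asked how Robertsonian translocations, fusions of chromosomes at the centromere, affect where γH2AX and the histone variant H3.3 lie in the genome of mouse germ cells. Both were profiled in whole testis by ChIP-seq (sequencing of immunoprecipitated chromatin), γH2AX at 4 weeks and H3.3 at 6 weeks of age. For γH2AX, 3Rb mice came from B6.SPRET7MOLF12 crossed with RBF/Dnj and were heterozygous for 3 translocations. 1Rb_M mice came from CBy.RBF-Rb(8.12)5Bnr/J crossed with B6.SPRET7MOLF12, and 1Rb_P mice from C57BL/6J crossed with CBy.RBF-Rb(8.12)5Bnr/J, each with 1 translocation. The 3 carrier crosses had 3 libraries each, and the control strain C57BL/6J, called B6, had 1. For H3.3, 3 libraries each were made from 3Rb, from 1Rb (the cross of 1Rb_M) and from the parental control strain B6.SPRET7MOLF12, called Cg. Input chromatin was sequenced from 3 samples titled 1Rb_M, Cg and B6, the Cg input at 6 weeks and the other inputs at 4 weeks. Both marks were set against the 3 pooled, so each was compared partly with input of the other age. The strain label of the 1Rb_M input names the 1Rb_P cross, so its cross is uncertain, and an input of 3Rb was not analysed here. The crosses differ in their parental strains as well as in their translocations, so that strain and translocation cannot be told apart. Whole testis holds germ cells of every stage and somatic cells, and a level of either mark is an average over all of them. The labels do not say whether replicates were separate animals, and p-values then measure the spread between libraries. As background on the RBF/Dnj strain, chromosomes 1 and 9 are among those it carries joined, so that Tnp1 and Acrv1 lie on joined chromosomes in 3Rb. The other genes lie on chromosomes that are in none of its translocations.

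Late in spermatogenesis the round spermatid stops transcribing and packs its genome into the sperm head. Histones are replaced first by the transition proteins encoded by Tnp1 and Tnp2 and then by the protamines encoded by Prm1 and Prm2, small arginine-rich proteins that coil DNA tightly. The acrosome, a vesicle over the sperm nucleus, carries Acr (acrosin, a serine protease) and Acrv1 (SP-10, a protein of the acrosomal matrix), and Izumo1, exposed after its release, binds Juno on the egg and is needed for fusion. In the tail, Odf1 is a component of the outer dense fibres, Spag6 belongs to the central pair of the axoneme, and Gapdhs is the sperm form of glyceraldehyde-3-phosphate dehydrogenase. γH2AX is H2AX phosphorylated at DNA breaks and, in meiotic prophase, across unsynapsed chromatin and the XY body. H3.3 is a histone H3 variant deposited outside replication, above all over transcribed genes and regulatory regions.

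Total counts per library were 45527545 to 56385465 for γH2AX in the carrier crosses, 21535147 for γH2AX in B6, 41278440 to 128348440 for H3.3 and 11876426 to 51651953 for input. A window of these genes held 490 to 1058 counts in each γH2AX library of the carriers, 239 to 357 in B6, 622 to 4457 in the H3.3 libraries and 193 to 1134 in the inputs. For the median window, counting error was 3.58 to 3.97% for γH2AX in carriers, 5.92% in B6 and 2.22 to 3.92% for H3.3. Levels are log2 ratios of a library to the 3 inputs pooled, scaled on 13 autosomes that no translocation joins, so that 0 means as much as in input. All windows have the same length, so levels can be set side by side between genes. 2 of the 3 γH2AX libraries of 1Rb_M, replicates 1 and 2, carried less γH2AX on the X chromosome than the others (4.53- and 4.55-fold over input, against 7.81-fold in replicate 3 and 7.19- to 7.91-fold in the 6 libraries of 1Rb_P and 3Rb). Results that rest on 1Rb_M are therefore also given without these 2 libraries, an alternative chosen after seeing the data. It leaves 1 library of 1Rb_M, which is then assumed to vary like the libraries of the other groups, so that its p-values rest on the spread of those groups alone.

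Promoter sequences from RefSeq (GRCm38.p6), 250 bases before and 50 after the annotated start, were found for 8 of the 10 genes. Acr and Odf1 are named only. 6 of them are shown because the results turn on their windows: the protamine and transition protein cluster of 3 genes, Tnp1 and Izumo1 with the least γH2AX of the 9 windows in 3Rb, and Acrv1 with the most. Each is written 5′ to 3′ on the strand of its gene. Prm1 is at chr16:10796774-10797073 (minus strand), Prm2 at chr16:10792056-10792355 (minus), Tnp2 at chr16:10788606-10788905 (minus), Tnp1 at chr1:73015850-73016149 (minus), Izumo1 at chr7:45621561-45621860 (plus) and Acrv1 at chr9:36692970-36693269 (plus). Capitals mark matches to the cAMP response element with its middle pair left free (TGANNTCA, its own reverse complement) or to the TATA box (TATAAA, or TTTATA on the other strand).
Prm1: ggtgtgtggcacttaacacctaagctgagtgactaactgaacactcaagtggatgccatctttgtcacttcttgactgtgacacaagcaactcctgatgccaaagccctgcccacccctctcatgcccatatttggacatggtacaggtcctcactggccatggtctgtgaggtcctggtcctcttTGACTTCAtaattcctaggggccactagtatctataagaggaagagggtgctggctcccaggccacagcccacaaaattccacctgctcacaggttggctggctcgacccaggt
Prm2: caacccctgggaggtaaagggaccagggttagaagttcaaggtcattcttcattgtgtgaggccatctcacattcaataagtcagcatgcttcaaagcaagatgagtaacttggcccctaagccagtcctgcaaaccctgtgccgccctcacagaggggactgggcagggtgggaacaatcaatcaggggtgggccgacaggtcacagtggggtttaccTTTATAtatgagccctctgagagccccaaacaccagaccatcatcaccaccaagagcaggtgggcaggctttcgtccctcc
Tnp2: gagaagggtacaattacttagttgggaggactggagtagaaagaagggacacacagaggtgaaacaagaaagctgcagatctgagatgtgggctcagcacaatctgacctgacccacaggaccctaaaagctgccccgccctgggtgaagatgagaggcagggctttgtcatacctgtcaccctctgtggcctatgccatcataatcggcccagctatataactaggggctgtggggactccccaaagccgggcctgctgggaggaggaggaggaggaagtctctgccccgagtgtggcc
Tnp1: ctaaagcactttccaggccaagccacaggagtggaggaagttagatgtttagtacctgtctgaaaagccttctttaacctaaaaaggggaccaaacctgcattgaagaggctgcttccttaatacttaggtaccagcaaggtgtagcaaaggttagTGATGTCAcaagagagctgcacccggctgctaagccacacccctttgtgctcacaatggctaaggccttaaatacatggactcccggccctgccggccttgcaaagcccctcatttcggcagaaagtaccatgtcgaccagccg
Izumo1: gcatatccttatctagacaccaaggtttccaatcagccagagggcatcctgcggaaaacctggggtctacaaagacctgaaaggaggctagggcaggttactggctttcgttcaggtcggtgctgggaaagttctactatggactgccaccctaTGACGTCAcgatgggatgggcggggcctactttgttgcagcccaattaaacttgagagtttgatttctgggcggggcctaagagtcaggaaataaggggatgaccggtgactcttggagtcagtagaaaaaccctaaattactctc
Acrv1: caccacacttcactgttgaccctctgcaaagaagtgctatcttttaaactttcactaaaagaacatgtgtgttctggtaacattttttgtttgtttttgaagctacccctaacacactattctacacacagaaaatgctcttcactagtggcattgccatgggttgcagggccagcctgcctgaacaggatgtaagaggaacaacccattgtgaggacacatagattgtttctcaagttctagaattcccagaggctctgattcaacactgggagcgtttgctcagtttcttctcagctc

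The cAMP response element is the site of CREM, a transcription factor of spermatids. Its full palindrome, TGACGTCA, was present in the Izumo1 promoter, 96 bases before the start, and in 1.88% of 27025 promoters of the same length. With the middle pair free, a form chosen after the sequences had been read, it was present in the promoters of 5 of the 8 genes and in 14.3% of all promoters. It read TGATGTCA in Tnp1, 94 bases before the start, TGATGTCA in Spag6, 96 bases before it, and TGACTTCA in Prm1, 64 bases before it. Gapdhs, with 2 annotated starts, had TGATGTCA and TGACATCA before each of them. A TATA box was present in Prm2, against 14.2% of all promoters. CpG pairs were few at Prm1, at Acrv1 and at the second Gapdhs start, with 1 each in 300 bases, and most numerous at Spag6, with 26, beside a median of 7 over all promoters. These matches describe the letters in the windows and say nothing of binding, and a 50 kb count does not place either mark on a promoter.

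H3.3 was enriched over input in 7 of the 9 windows in each group, and the exceptions were Tnp1 and Acrv1. By edgeR's quasi-likelihood test with Benjamini-Hochberg adjustment over all windows, 7 windows were higher than input in 3Rb, 1Rb and Cg alike. Of all windows, 38.0%, 41.1% and 41.0% were higher in these groups. Among autosomal windows with as many genes, averaged over the 9, the shares were 67.7%, 68.9% and 68.8%. Tnp1 was lower than input in 3Rb (−0.13 ± 0.050 on the log2 scale, SE, adjusted p = 0.0197), where 44.3% of all windows were lower, and no window was lower in 1Rb or Cg, where 43.9% and 44.5% were. The Tnp1 call was lost without the first 3Rb library, without the Cg input, with autosomes alone in the fit and with DESeq2 (adjusted p 0.0716 to 0.198). The median level of the 9 windows was 0.55 in 3Rb, 0.61 in 1Rb and 0.61 in Cg, beside −0.16, −0.17 and −0.17 over all autosomal windows.

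At the window of Prm1, Prm2 and Tnp2 (chr16:10750001-10800000), which also holds Prm3 and Socs1, the H3.3 level was 0.52, 0.59 and 0.61 in 3Rb, 0.53, 0.68 and 0.62 in 1Rb and 0.70, 0.55 and 0.58 in Cg. The groups overlapped, with each library between 0.52 and 0.70. The means were 0.57 ± 0.046 in 3Rb, 0.61 ± 0.072 in 1Rb and 0.61 ± 0.081 in Cg (SD, n = 3 each). The 219 other autosomal windows with 5 protein-coding genes had medians of 0.71, 0.80 and 0.77 in the same order, which put the cluster at percentile 32.0 in 3Rb, 28.3 in 1Rb and 31.5 in Cg. These genes are short, and 8.16% of the window is genic. Set against windows with a like share of genic sequence instead, the cluster was higher by 0.80 in 3Rb, 0.87 in 1Rb and 0.86 in Cg. Which property of the windows is matched thus decides on which side of its peers the protamine cluster falls.

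Tnp1 (chr1:73000001-73050000), the only gene of its window and 1.65% of it, had H3.3 levels of −0.25, −0.18 and −0.18 in 3Rb, −0.19, −0.14 and −0.098 in 1Rb and −0.16, −0.17 and −0.19 in Cg. All 9 libraries were below input and the groups overlapped. The 19844 windows with 1 gene had medians of −0.037 in 3Rb, −0.036 in 1Rb and −0.030 in Cg, and Tnp1 stood at percentiles 33.9, 40.8 and 37.5 among them. Against windows with a like share of genic sequence Tnp1 was higher by 0.025, 0.11 and 0.078. Both transition protein genes are expressed in the same cells. The window of Tnp2 was higher than that of Tnp1 by 0.77 on the log2 scale in 3Rb, 0.75 in 1Rb and 0.79 in Cg. It holds 5 protein-coding genes, and that of Tnp1 holds 1. From the medians of windows with as many genes, the Tnp2 window lay −0.14, −0.19 and −0.16 in the same order. Tnp1 lay −0.16, −0.11 and −0.14 from its own, so little of the gap remained once gene number was matched.

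Acr (chr15:89550001-89600000, with Shank3 and Rabl2) was the higher of the 2 acrosomal genes in H3.3, at 0.71, 0.70 and 0.67 in 3Rb, 0.57, 0.77 and 0.77 in 1Rb and 0.84, 0.76 and 0.73 in Cg, above the medians of 0.47, 0.53 and 0.51 of the 1718 windows with 3 genes. Acrv1 (chr9:36650001-36700000, alone in its window) had −0.15, −0.18 and −0.21 in 3Rb, −0.18, −0.21 and −0.15 in 1Rb and −0.14, −0.057 and −0.024 in Cg. All 9 Acrv1 libraries were below input. The 3 Cg libraries were above those of 3Rb and 1Rb, the lowest at −0.14 beside −0.15 for the highest of the others. Acrv1 did not pass the test in either comparison with Cg, and how often libraries fail to overlap over all windows was not counted. Izumo1 (chr7:45600001-45650000, with Fgf21, Fut1, Rasip1, Mamstr and Fut2) averaged 0.57 ± 0.071 in 3Rb, 0.69 ± 0.095 in 1Rb and 0.65 ± 0.086 in Cg. The 92 windows with 6 genes had medians of 0.75, 0.86 and 0.80, above Izumo1 in each group. Set against windows with a like share of genic sequence, Izumo1 was higher by 0.27, 0.34 and 0.31.

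Gapdhs (chr7:30700001-30750000, with 2200002J24Rik, Atp4a, Tmem147 and Sbsn) averaged 0.55 ± 0.034 in 3Rb, 0.63 ± 0.014 in 1Rb and 0.61 ± 0.10 in Cg, at percentiles 27.9, 30.6 and 31.5 of the windows with 5 genes. Against windows with a like share of genic sequence it was higher by 0.57, 0.65 and 0.63. Odf1 (chr15:38200001-38250000) averaged 0.25 ± 0.027, 0.27 ± 0.058 and 0.31 ± 0.043 in the same groups, higher than 77.3%, 76.8% and 78.9% of windows with 1 gene. The first Spag6 window (chr2:18650001-18700000), which holds the Spag6 start together with Commd3, Bmi1 and Gm46725, had the most H3.3 of the 9, at 0.89, 0.74 and 0.80 in 3Rb, 0.83, 0.89 and 0.97 in 1Rb and 0.90, 0.86 and 0.93 in Cg. The second (chr2:18700001-18750000), which is 99.5% Spag6, had 0.25, 0.11 and 0.24 in 3Rb, 0.20, 0.35 and 0.22 in 1Rb and 0.31, 0.43 and 0.39 in Cg. Every library was higher in the first window than in the second, and the difference of the means was 0.61 in 3Rb, 0.64 in 1Rb and 0.52 in Cg. The first window holds 4 protein-coding genes and the second 1. Over the medians of windows with as many genes, the first was higher by 0.21, 0.23 and 0.25 in the same order. The second was higher by 0.24, 0.29 and 0.41, so the first did not exceed it once gene number was matched. In no group did any of the 9 windows leave the range between the 10th and 90th percentile of windows with the same number of genes.

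**Figure D1:**
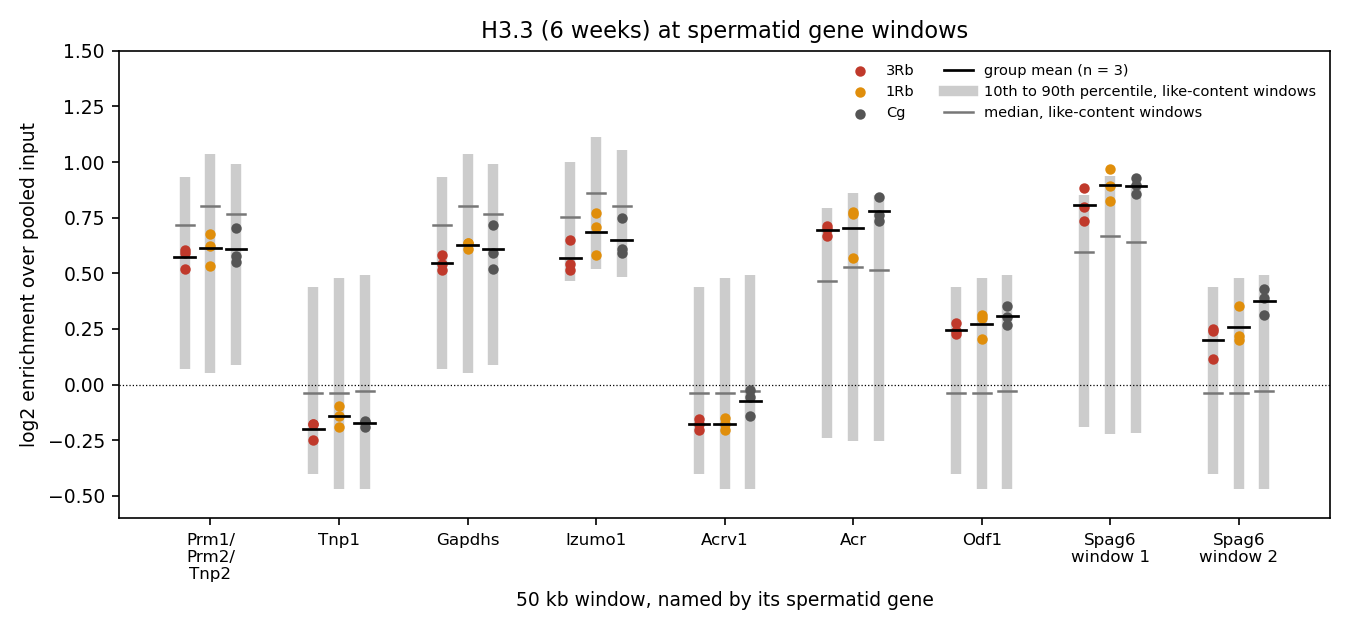
H3.3 level (log2 ratio to pooled input, vertical axis) of each library at the 9 windows, for 3Rb, 1Rb and Cg at 6 weeks. Points are libraries, black lines group means, grey bars the 10th to 90th percentile and ticks the median of windows with as many protein-coding genes; 7 windows lie above 0 in each group, and Tnp1 and Acrv1 below it.

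For γH2AX at 4 weeks, 4 of the 9 windows in 3Rb, 6 in 1Rb_M and 7 in 1Rb_P did not pass the test against input. Tnp1 and Izumo1 were lower than input in each carrier cross, and Gapdhs and the protamine cluster in 3Rb alone. These counts depend on scaling. With library totals 8, 7 and 9 windows were lower in the same order, and the medians of all windows were −0.31, −0.24 and −0.32. In 3Rb, 1 window was higher than input and 4 were lower, where 32.0% and 29.7% of all windows were. In 1Rb_M, 1 was higher and 2 were lower, where 17.3% and 13.3% were, and in 1Rb_P 0 were higher and 2 lower, where 25.1% and 27.9% were. With DESeq2 0 windows were higher in 1Rb_P and 0 in 1Rb_M, and in 1Rb_P the 2 windows called lower were the only ones with an unadjusted p under 0.05. The median of the 9 windows was −0.053 in 3Rb, 0.077 in 1Rb_M, 0.10 in 1Rb_P and 0.022 in B6.

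The window of Prm1, Prm2 and Tnp2 had γH2AX levels of −0.095, −0.13 and −0.16 in 3Rb, 0.13, 0.025 and 0.40 in 1Rb_M, 0.22, 0.26 and 0.14 in 1Rb_P and 0.14 in B6. The 3 libraries of 3Rb were below input and below every other library, while all others were above input. Against the windows with 5 genes the cluster stood at percentile 57.1 in 3Rb, 90.9 in 1Rb_M, 89.0 in 1Rb_P and 73.1 in B6. In 3Rb it was lower than input (−0.21 ± 0.074, adjusted p = 0.0139), a call lost without the 1Rb_M input (adjusted p = 0.0539) and with scaling on the totals of the unjoined autosomes (adjusted p = 0.132). In 1Rb_M it was higher than input without the second library of that cross (0.21, adjusted p = 0.0124), and in 1Rb_P it was higher without the third 1Rb_M library in the shared fit (0.14, adjusted p = 0.0359). Without both 1Rb_M libraries low on X, it was 0.31 above input in 1Rb_M and Odf1 0.18 above it, both past the test with the spread of the other groups.

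Tnp1 had −0.55, −0.37 and −0.44 in 3Rb, −0.24, −0.23 and −0.15 in 1Rb_M, −0.35, −0.25 and −0.36 in 1Rb_P and −0.29 in B6. Every library was below input, and those of 3Rb were the lowest. It was lower than input by the test in 3Rb (−0.53 ± 0.068, adjusted p = 1.74e-08), in 1Rb_M (−0.26 ± 0.067, adjusted p = 0.00234) and in 1Rb_P (−0.39 ± 0.068, adjusted p = 9.45e-06). It stood under the 10th percentile of windows with 1 gene in all 4 groups, at 4.48 in 3Rb, 3.40 in 1Rb_M, 3.52 in 1Rb_P and 8.44 in B6.

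Izumo1 was the window with the least γH2AX in 3Rb, with −0.60, −0.65 and −0.54 in 3Rb, −0.12, −0.27 and −0.23 in 1Rb_M, −0.18, −0.37 and −0.39 in 1Rb_P and −0.26 in B6. Again every library was below input and the 3Rb libraries lay apart at the bottom. Differences from input were −0.66 ± 0.065 in 3Rb (adjusted p = 2.72e-11), −0.25 ± 0.063 in 1Rb_M (adjusted p = 0.00216) and −0.37 ± 0.064 in 1Rb_P (adjusted p = 8.44e-06). The 1Rb_M call was lost without the 1Rb_M input (adjusted p = 0.0727). Its percentile among windows with 6 genes was 2.17 in 3Rb, 6.52 in 1Rb_M, 4.35 in 1Rb_P and 7.61 in B6, so that Izumo1 and Tnp1 were the 2 windows under the 10th percentile in each group.

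Acrv1 was the window with the most γH2AX in 3Rb, with 0.35, 0.38 and 0.33 in 3Rb, 0.20, 0.23 and 0.24 in 1Rb_M, 0.032, 0.22 and 0.090 in 1Rb_P and 0.022 in B6. The 3Rb libraries were above all others. It was higher than input in 3Rb (0.28 ± 0.056, adjusted p = 4.21e-05) and in 1Rb_M (0.17 ± 0.057, adjusted p = 0.0187), and the 1Rb_M call was lost with DESeq2 (adjusted p = 0.105) and without the 1Rb_M input (adjusted p = 0.0947), and without both 1Rb_M libraries low on X (0.15, adjusted p = 0.0860). With scaling on library totals, which include X and Y and put the median of all windows at −0.31 in 3Rb and −0.24 in 1Rb_M, these Acrv1 differences were −0.037 and −0.048. Among windows with 1 gene its percentile was 85.4 in 3Rb, 89.1 in 1Rb_M, 66.4 in 1Rb_P and 52.4 in B6.

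Gapdhs had γH2AX levels of −0.36, −0.27 and −0.36 in 3Rb, 0.096, −0.16 and 0.17 in 1Rb_M, −0.010, 0.088 and −0.00078 in 1Rb_P and −0.16 in B6. The 3Rb libraries were below all others, and the second 1Rb_M library and the B6 library lay between them and the rest. It was lower than input in 3Rb (−0.42 ± 0.073, adjusted p = 4.26e-06). The inputs themselves differed at this window, the B6 input being higher than the pool by 0.24, the Cg input lower by a log2 difference of −0.12 and the 1Rb_M input higher by 0.037, and the part of this in the difference from input was not tested.

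For the other windows the means were near 0. Acr averaged −0.037 ± 0.033 in 3Rb, 0.077 ± 0.13 in 1Rb_M and 0.10 ± 0.038 in 1Rb_P, with 0.0097 in B6. Odf1 averaged −0.053 ± 0.023, 0.11 ± 0.14 and 0.027 ± 0.058 in the same crosses, with 0.21 in B6. Both Spag6 windows overlapped between all groups, with libraries between −0.018 and 0.17 in the first and between −0.056 and 0.22 in the second. None of Acr, Odf1 and Spag6 passed the test against input in any cross with all libraries. Without the third 1Rb_M library in the shared fit, Odf1 (−0.13, adjusted p = 0.0305) and Acr (−0.12, adjusted p = 0.0386) were lower than input in 3Rb.

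**Figure D2:**
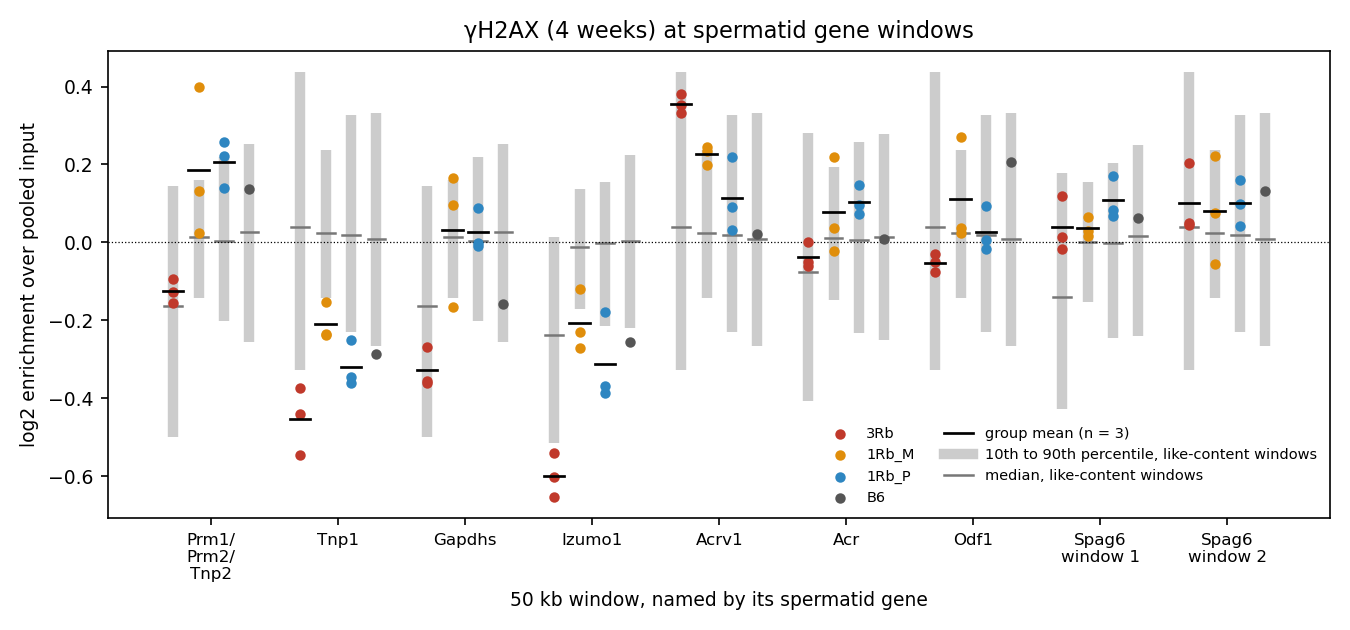
γH2AX level (log2 ratio to pooled input, vertical axis) of each library at the 9 windows, for 3Rb, 1Rb_M, 1Rb_P and the single B6 library at 4 weeks. Points are libraries, black lines group means, grey bars the 10th to 90th percentile and ticks the median of windows with as many protein-coding genes; Tnp1 and Izumo1 lie under the grey bars, and 3Rb lies apart from the other groups at Prm1/Prm2/Tnp2, Gapdhs, Izumo1, Tnp1 and Acrv1.

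Between the crosses, γH2AX in 3Rb was lower than in 1Rb_M at Tnp1, Gapdhs, Izumo1, Odf1 and the protamine cluster. These 5 of the 9 windows passed the test, where 20.2% of all windows were lower, and 0 were higher, where 17.9% were; DESeq2 called 4 lower and 0 higher, and 6 windows in either direction had an unadjusted p under 0.05. Counts scaled to a common library size (CPM) at the protamine cluster were 14.3 ± 0.306 in 3Rb and 18.02 ± 2.08 in 1Rb_M (SD, n = 3 each), a log2 difference of −0.34 ± 0.068 (SE, edgeR adjusted p = 0.000222). Gapdhs had 12.5 ± 0.420 in 3Rb and 16.3 ± 1.70 in 1Rb_M, a difference of −0.38 ± 0.064 (adjusted p = 1.96e-05). Izumo1 had 10.8 ± 0.450 in 3Rb and 14.4 ± 0.918 in 1Rb_M, a difference of −0.41 ± 0.069 (adjusted p = 2.14e-05). In these windows and in Tnp1 and Odf1 the libraries of the crosses did not overlap. How often libraries failed to overlap over all windows was not counted, in this or any other comparison. Tnp1 differed by −0.26 ± 0.070 (adjusted p = 0.00359) and Odf1 by −0.19 ± 0.059 (adjusted p = 0.0138). The Odf1 call was lost without the third 1Rb_M library (−0.12, adjusted p = 0.0804) and with DESeq2 (adjusted p = 0.0868).

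Windows that hold many genes were lower in 3Rb than in 1Rb_M along the autosomes. Of the 19844 other windows with 1 gene, 22.9% were called lower, and of those with 3, 4, 5 and 6 genes 40.0%, 50.8%, 60.3% and 73.9% were. The median γH2AX level in 3Rb was 0.078 in autosomal windows without a gene, 0.039 with 1 gene, −0.16 with 5 and −0.24 with 6. In 1Rb_M, 1Rb_P and B6 it lay between −0.011 and 0.027 in all 4 of these classes. In the 66 windows with 7 or more genes the median was −0.21 in 3Rb, −0.035 in 1Rb_M, −0.082 in 1Rb_P and −0.071 in B6. The protamine cluster and Gapdhs, with 5 genes in the window, lay −0.13 and −0.18 from the median difference of such windows, −0.20, and Izumo1 lay −0.15 from the median of windows with 6 genes, −0.26. Tnp1 and Odf1, each alone in its window, lay −0.25 and −0.18 from a median of −0.0083. All 5 thus lay inside the range between the 10th and 90th percentile of windows like them, except Izumo1, whose percentile was 7.61.

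Acrv1, Acr and Spag6 did not pass. Acrv1 had a difference of 0.11 ± 0.055 (adjusted p = 0.111) with no overlap in CPM, and Acr one of −0.13 ± 0.057 (adjusted p = 0.0608). Acr did pass without the second 1Rb_M library (−0.18, adjusted p = 0.00939) or without the third 1Rb_P library in the shared fit (−0.15, adjusted p = 0.0483). The 2 Spag6 windows differed by −0.017 ± 0.056 and −0.0015 ± 0.066, with overlapping libraries. When the 1Rb_M libraries with little γH2AX on X were left out, with the spread taken from the other groups, 6 windows were lower and 0 higher. The differences were then −0.51 at the protamine cluster, −0.48 at Gapdhs, −0.35 at Izumo1, −0.31 at Odf1, −0.28 at Tnp1 and −0.24 at Acr (adjusted p of Acr 0.0021).

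Against 1Rb_P, which shares the 3Rb libraries with the comparison above, 3Rb was lower at Gapdhs, Izumo1 and the protamine cluster and higher at Acrv1. The 3 windows lower compare with 12.8% of all windows, and the 1 higher with 10.1%; DESeq2 gave the same counts. At the protamine cluster, CPM values were 14.3 ± 0.306 in 3Rb and 18.04 ± 0.687 in 1Rb_P, a log2 difference of −0.34 ± 0.068 (adjusted p = 0.000398). Gapdhs had 12.5 ± 0.420 in 3Rb and 16.03 ± 0.615 in 1Rb_P, a difference of −0.36 ± 0.065 (adjusted p = 8.53e-05). Izumo1 differed by −0.29 ± 0.070 (adjusted p = 0.00225). For these 3 the libraries did not overlap, and 51.1% of other windows with 5 genes and 68.5% of those with 6 were lower as well. Acrv1 had 16.5 ± 0.234 in 3Rb and 13.98 ± 0.952 in 1Rb_P, a difference of 0.23 ± 0.056 (adjusted p = 0.00247), where 11.1% of other windows with 1 gene were higher. Its difference was larger than in 93.0% of those windows. Tnp1 (−0.14 ± 0.071, adjusted p = 0.167), Acr (−0.15 ± 0.057, adjusted p = 0.0622), Odf1 (−0.085 ± 0.060) and both Spag6 windows did not pass. Acr passed with the second or the third 1Rb_M library out of the shared fit (−0.15 in both, adjusted p 0.0269 and 0.0220), and with the 2 libraries low on X out of it Tnp1 passed too (−0.14, adjusted p = 0.0490).

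Between 1Rb_M and 1Rb_P, both with 1 translocation, 0 of the 9 windows passed edgeR's quasi-likelihood test, where 0.299% of all windows were higher and 1.06% lower. DESeq2 also called 0, and 1 window, Acrv1, had an unadjusted p under 0.05 (0.12 ± 0.057). The differences ran from −0.058 at the first Spag6 window to 0.12 at Acrv1. Without the 1Rb_M libraries with little γH2AX on X, the log2 difference at Odf1 was 0.22 for the remaining 1Rb_M library (adjusted p = 0.0148, with the spread taken from the other groups), and no replicate of it bears on this value.

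**Figure D3:**
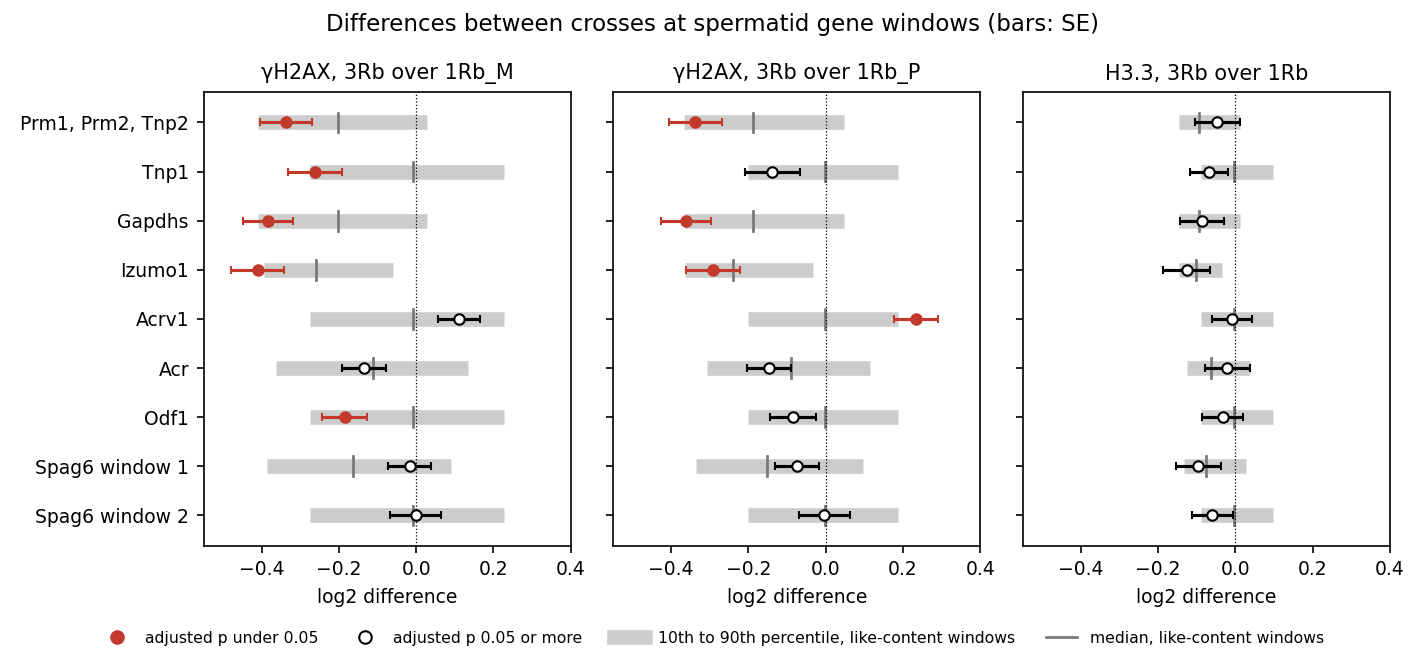
Log2 difference with its SE (horizontal axis) at the 9 windows for γH2AX 3Rb over 1Rb_M, γH2AX 3Rb over 1Rb_P and H3.3 3Rb over 1Rb. Filled red points passed an adjusted p of 0.05 in edgeR and grey bars span the 10th to 90th percentile of windows with as many genes; γH2AX points run from −0.41 at Izumo1 to 0.23 at Acrv1, and no H3.3 point passed.

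The 20 neighbouring windows within 500 kb of each gene show how local these values are. Around Gapdhs and Izumo1, γH2AX in 3Rb was below 1Rb_M in all 20 neighbours, with median differences of −0.35 and −0.30 beside −0.36 and −0.39 at the genes. Against 1Rb_P, all 20 neighbours of Izumo1 were lower as well, with a median of −0.25 beside −0.29 at the gene. Both genes thus lie in stretches that differ between the crosses over a far longer span than the gene. At the protamine cluster the difference from 1Rb_M was −0.31 beside a median of −0.18, and from 1Rb_P −0.33 beside −0.16. There 3Rb was below 1Rb_M in 16 of 20 neighbours and below 1Rb_P in 18. In each comparison 1 neighbour had a larger drop than the cluster itself. At Tnp1 the difference from 1Rb_M was −0.24 beside −0.13. Here 3Rb was below 1Rb_M in 19 of 20 neighbours, and 0 of them had a larger drop than the Tnp1 window. Around Acrv1 all 20 neighbours were higher in 3Rb than in 1Rb_P, with a median of 0.16 beside 0.24 at the gene.

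Acrv1 also stood above its surroundings within each group, over 19 of 20 neighbours in 3Rb, 20 in 1Rb_M, 17 in 1Rb_P and 18 in B6. Tnp1 was below all 20 of its neighbours in 3Rb and below 17 in 1Rb_M, 17 in 1Rb_P and 14 in B6. Izumo1 was below 17 of 20 in each carrier cross and below all 20 in B6. For H3.3, the first Spag6 window was above 19 of 20 neighbours in each group, the protamine cluster above 17 of 20 in each group and Acr above 16 in 3Rb, 14 in 1Rb and 16 in Cg. Tnp1 did not stand out in H3.3, with 10, 12 and 9 of 20 neighbours below it in 3Rb, 1Rb and Cg.

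**Figure D4:**
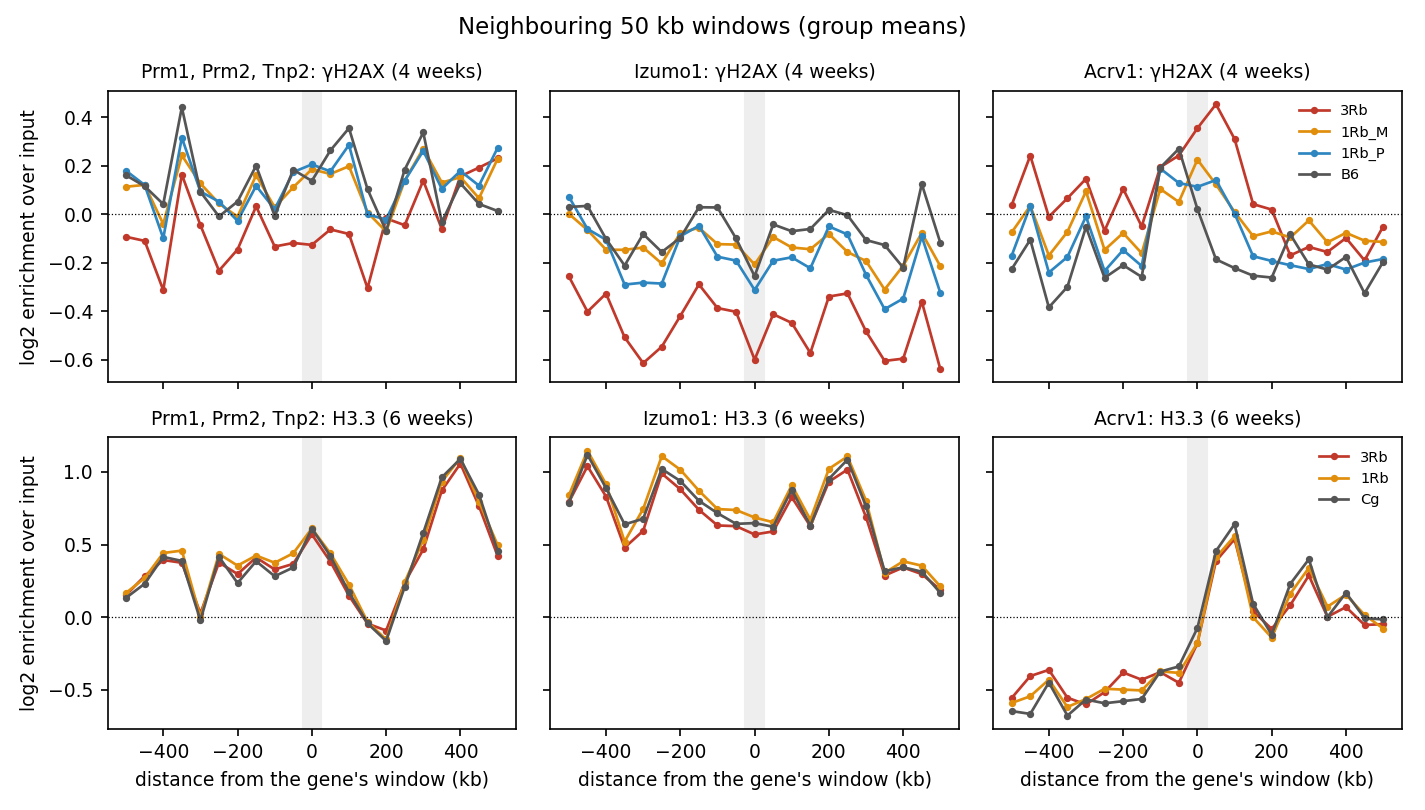
γH2AX (top) and H3.3 (bottom) as log2 ratio to input (vertical axis) in windows from 500 kb before to 500 kb after the windows of Prm1/Prm2/Tnp2, Izumo1 and Acrv1 (horizontal axis, kb from the window). Lines are group means; 3Rb runs below the other groups across the whole Izumo1 stretch, and around Acrv1 γH2AX is above 19 of 20 neighbours in 3Rb, where the window 50 kb after it is higher.

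For H3.3 at 6 weeks, 1 window of these genes passed in the 3 comparisons between groups. In 3Rb against Cg, 1 of the 9 windows was lower, where 6.16% of all windows were, and 0 were higher, where 3.34% were; DESeq2 called 0 in either direction, and 1 window had an unadjusted p under 0.05. That window was the second of Spag6, with 19.1 ± 1.00 CPM in 3Rb and 21.5 ± 0.809 in Cg and no overlap between libraries, a log2 difference of −0.16 ± 0.052 (edgeR adjusted p = 0.0374). The call was lost without the second Cg library (−0.14, adjusted p = 0.127), the third Cg library (adjusted p = 0.0756), the second 3Rb library (−0.12, adjusted p = 0.310) or the third 3Rb library (adjusted p = 0.0594), and with DESeq2 (adjusted p = 0.0834). The protamine cluster differed by −0.043 ± 0.057, Tnp1 by −0.025 ± 0.049 and Acrv1 by −0.089 ± 0.049 (adjusted p 0.691, 0.800 and 0.282). All 9 differences were negative, from −0.16 to −0.025, beside a median of 0.0027 over all windows tested and of −0.051 over windows with 5 genes.

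In 1Rb against Cg, 0 windows passed in edgeR or DESeq2 and 0 had an unadjusted p under 0.05, where 1.08% of all windows were called higher and 2.62% lower. The widest difference was at the second Spag6 window (−0.10 ± 0.053, adjusted p = 0.424), and the protamine cluster differed by 0.0033 ± 0.058. In 3Rb against 1Rb, 0 passed in either tool, where 2.08% of all windows were higher and 4.02% lower, and 1, Izumo1, had an unadjusted p under 0.05 (−0.13 ± 0.061). The 3 H3.3 comparisons share libraries. With simulated data of the same design, 87% of windows changed by 0.3 on the log2 scale were called for 3Rb against Cg. Far fewer windows were changed there than the 1775 called higher and 3274 called lower in the data, so this share need not carry over.

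The cross with 3 translocations and the 1Rb_M cross were profiled for both marks, at different ages, so the size of the difference between these crosses was compared between marks. By edgeR's quasi-likelihood test 0 windows passed, where 6.57% of all windows were higher in γH2AX and 6.81% lower, DESeq2 called 0, and 5 windows had an unadjusted p under 0.05. These were Gapdhs (−0.29 ± 0.12, adjusted p = 0.0978), the protamine cluster (−0.28 ± 0.13, 0.138), Izumo1 (−0.28 ± 0.12, 0.118), Tnp1 (−0.18 ± 0.071, 0.0883) and Acrv1 (0.13 ± 0.060, 0.158). It is therefore not shown that the lower γH2AX of 3Rb at the protamine cluster, Gapdhs, Izumo1 and Tnp1 differs from what H3.3 did in the same crosses. Without the second 1Rb_M library, Gapdhs (−0.41), Izumo1 (−0.33) and the protamine cluster (−0.39) passed, and without the third, Gapdhs (−0.23) and Izumo1 (−0.29) did. Without both libraries with little γH2AX on X, and with the spread of the other groups, 6 windows were lower, among them the protamine cluster (−0.52), Gapdhs (−0.45) and Izumo1 (−0.28).

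Other genes of spermatids, from lists of chromatin, acrosome, fusion, tail and energy genes, occupied 148 autosomal windows. γH2AX in 3Rb was higher than in 1Rb_M in 36 of them and lower in 42, where 17.9% and 20.2% of all windows were. The median difference was −0.024, beside 0.014 over all windows tested. By function the other chromatin genes had 4 higher and 5 lower of 18, acrosome genes 13 and 11 of 39, fusion and adhesion genes 0 and 7 of 20, tail genes 19 and 13 of 59, and energy genes 0 and 6 of 13. Lists of other cells gave 8 higher and 7 lower of 37 windows for meiotic recombination genes, 0 and 12 of 27 for spermatogonia genes and 1 and 15 of 32 for somatic testis genes. The windows lower in 3Rb were thus found with genes of germ cells and of somatic cells alike. The smallest adjusted p among higher windows belonged to Spag16 (axoneme central apparatus, 0.34), Zpbp (acrosomal, 0.31) and Spata16 (0.26), and among lower ones to Dnah17 (an axonemal dynein chain, −0.55), Tekt4 (a tektin, −0.52), Chd5 (a chromatin remodeler, −0.42) and Catsper3 (a subunit of the sperm calcium channel, −0.42). Against 1Rb_P, 26 of the 148 windows were higher and 29 lower, where 10.1% and 12.8% of all windows were.

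H3.3 over these lists was highest at the other chromatin genes, with a median level of 0.62 in 3Rb, 0.65 in 1Rb and 0.72 in Cg, and 16 of their 18 windows were above the median of windows with the same number of genes in each group. Fusion genes had medians of 0.53, 0.57 and 0.62 and energy genes of 0.49, 0.60 and 0.60, with lower values at acrosome genes (0.16, 0.21 and 0.26) and tail genes (0.20, 0.25 and 0.29). γH2AX at the other fusion genes was, as at Izumo1, below the median of windows of like gene number in most cases. It was above that median in 5 of 20 windows in 3Rb, 4 in 1Rb_M, 3 in 1Rb_P and 4 in B6. This was not particular to fusion genes, as energy genes were above it in 1, 3, 2 and 4 of 13 windows in the same order. For spermatogonia genes the numbers were 6, 12, 8 and 8 of 27, and for somatic testis genes 9, 15, 10 and 15 of 32. Tail genes went the other way, with 39, 39, 40 and 42 of 59 above. Of the 148 windows, H3.3 was lower in 3Rb than in Cg in 9 and higher in 0, where 6.16% and 3.34% of all windows were. The lower ones included windows of Spata16 (−0.22) and Spag16 (−0.21).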

How the data were processed

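The deposited values are counts of reads per 50 kb window, 1 table per library, for 22 libraries (19 immunoprecipitations and 3 inputs) and 54520 windows. The authors processed reads with CASAVA 1.8 and BWA and the mm10 build, per the submitters' processing notes; handling of duplicate and multiply mapping reads is not given in the sources used here. Groups were read from titles, and for the 1Rb_M input the strain label disagrees with the title and names the 1Rb_P cross.

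Each mark was fitted with edgeR 4.0.16 (R 4.3.3): 9 libraries of a mark together, a minimum mean of 10 counts, TMM scaling and the quasi-likelihood test. Calls were made at a Benjamini-Hochberg adjusted p under 0.05 over all windows. This left 53118 windows for γH2AX and 53117 for H3.3. Fits against input added the 3 inputs as 1 group, and the comparison of marks used 12 libraries. All adjusted p-values are from edgeR unless DESeq2 (1.42.0) is named. CPM values were computed from the TMM-scaled counts. Levels were log2 ratios to pooled input with 0.5 added to each count. Windows of like gene content were autosomal windows with the same number of protein-coding genes (7 or more as 1 class), input between 0.2 and 5 times the median, and none of the 10 genes. Gene positions and promoters came from RefSeq GRCm38.p6. The B6 library, without a replicate and with another antibody supplier on its label, entered no test. On simulated counts for 3Rb against 1Rb_M in γH2AX, the fit over 53118 windows called 75% of 100 windows changed by 0.3 on the log2 scale and 99% of 100 changed by 0.6, and 0.0265% of unchanged ones. Far more windows were called in the data, 9507 higher and 10708 lower. The adjusted cutoff therefore differs, and the simulated shares need not carry over. Alternatives were DESeq2, other scalings and filters, autosomes alone, each library left out and replicate number as a block. The 10 genes and the other gene lists were chosen with earlier results of these data known. Other genes were named by the 4 smallest adjusted p per comparison and direction. Intervals and errors of counting do not cover duplicate reads. Tables were analysed with Python 3.11.15 and pandas 2.3.3, and figures drawn with matplotlib 3.10.9.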

Additional observations from a re-analysis of the deposited data

How the results depend on the processing

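Counts of the 9 windows called that moved by over 1.5 times were these. With DESeq2, H3.3 in 3Rb against Cg had 0 lower (1 in the report), H3.3 in 3Rb against input 0 lower, and γH2AX in 1Rb_M against input 0 higher. With library totals, which include X and Y and put the median of all windows at −0.31 in 3Rb, −0.24 in 1Rb_M and −0.32 in 1Rb_P against input, γH2AX against input had 0 higher and 8 lower in 3Rb, 0 and 7 in 1Rb_M and 9 lower in 1Rb_P. H3.3 had 2 lower against input in 3Rb, 1Rb and Cg and 0 lower in 3Rb against Cg, and 5 windows were lower in γH2AX than in H3.3 between the crosses. With totals of the unjoined autosomes, 1 window was higher in 1Rb_P γH2AX against input and H3.3 had 2 lower in 3Rb and 1Rb and 1 in Cg. With autosomes alone, 1 window was lower in γH2AX than in H3.3, and H3.3 in 3Rb had 0 lower than input. Without the 1Rb_M libraries low on X, a setting chosen after seeing the data that leaves 1 such library and takes the spread from the other groups, 5 windows were lower in 3Rb than in 1Rb_P, 1 was higher in 1Rb_M than in 1Rb_P, 6 were lower in γH2AX than in H3.3 and 2 were higher than input in 1Rb_M.

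The differences from input that reversed did so with library totals: −0.30 at the second Spag6 window and −0.037 at Acrv1 in 3Rb; −0.20, −0.048, −0.16 and −0.20 at the second Spag6 window, Acrv1, Odf1 and Acr in 1Rb_M; and −0.26, −0.28, −0.25, −0.27 and −0.17 at both Spag6 windows, Acrv1, Acr and the protamine cluster in 1Rb_P. Between 3Rb and 1Rb_M the same scaling moved all windows to 4492 higher and 16177 lower, from 9507 and 10708.

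The median γH2AX level of the 9 windows was −0.44 in 3Rb, −0.20 in 1Rb_M, −0.27 in 1Rb_P and −0.43 in B6 with library totals. In 3Rb it was −0.077 scaled on the median autosomal window and −0.23 over windows with a start among the promoter sequences. Acr and Odf1 have no promoter sequence, so their windows were dropped there although each gene lies wholly within its window. For H3.3 the median window scaling gave 0.74 in 3Rb, 0.81 in 1Rb and 0.81 in Cg. The median of the differences from like windows, 0.037 for γH2AX in 3Rb and −0.14 for H3.3 in 3Rb, was −0.013 for γH2AX in 3Rb and 0.037 in 1Rb_M with windows matched by genic share and −0.14 in 3Rb with windows of the same chromosome. For H3.3 it was 0.27, 0.34 and 0.40 by genic share and 0.11, 0.043 and 0.14 by chromosome in 3Rb, 1Rb and Cg. The cause of these shifts was not tested.

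With 1 library or input left out, windows lower in H3.3 numbered 0 to 1 in 3Rb against Cg and 0 to 1 in 3Rb against input, and windows lower in γH2AX than in H3.3 numbered 0 to 3. γH2AX in 1Rb_M against input had 0 to 2 higher and 1 to 2 lower, and in 1Rb_P 0 to 1 higher. The difference from like windows ran from 0.0044 to 0.033 for γH2AX in 3Rb, from 0.030 to 0.092 in 1Rb_M and from −0.14 to −0.098 for H3.3 in 3Rb, and the H3.3 median in 3Rb from 0.53 to 0.55. Of 1242 single differences with 1 library left out, 1219 stayed called or uncalled as reported, 13 gained a call and 10 lost one. Of 828 under other settings, 770 stayed as reported. Direction was not always kept, since 81 of the 2070 were uncalled both times with the opposite sign.

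Replicate numbers did not pair the libraries: same-numbered libraries correlated at −0.33 to 0.32 for γH2AX, over 0.1 in 3 of 9 pairs, and at −0.56 to 0.14 for H3.3, in 1 of 9. With replicate number as a block, H3.3 in 3Rb against Cg had 0 windows lower (second Spag6 window −0.17, adjusted p = 0.0713) and γH2AX in 3Rb against 1Rb_M again 5.

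Depth and design limit these values. The single B6 library is shallow, none of the inputs is labelled 3Rb, and a 50 kb window holds neighbours of the gene it is named for.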
